A study of Mus musculus with 18 samples.

Results

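The transcripts of wild-type mouse embryonic fibroblasts were compared between 10 h and 1 h of TGF-β1, a contrast in which both sides had received the growth factor. It uses 6 of the 18 arrays of the series: 3 from wild-type cells after 10 h and 3 from wild-type cells after 1 h. Primary fibroblasts came from 14-day embryos without head and liver and were grown with 10% serum. Before treatment they stood for 4 to 6 h in medium without serum that held 1% AlbuMAX II and 1% of an insulin, transferrin and selenium mix. Wild-type cells and cells labelled NFI-C knock-out, from 3 embryos of each genotype, then received 12.5 ng/ml TGF-β1 for 1 h or 10 h or were left untreated, with 3 arrays in each of the 6 groups. By the labels, each embryo gave 1 array in each condition. No group of untreated cells analysed here is labelled as held for a further 10 h. Hours with TGF-β1 and hours without serum therefore cannot be told apart in any 10 h against 1 h difference.

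TGF-β1 is a secreted growth factor that binds a pair of receptor kinases, which phosphorylate SMAD2 and SMAD3. These enter the nucleus with SMAD4 and switch on target genes, among them inhibitors of the pathway itself such as SMAD7. In fibroblasts TGF-β is known for driving matrix production, contractile fibres and the conversion to myofibroblasts, and part of this depends on factors that the first targets encode. Levels are given on the log2 scale of the deposited values, where a difference of 1 is a 2-fold change. Differences are means of 3 against 3 arrays with the standard error of a limma fit over all 18 arrays, and adjusted p values are Benjamini-Hochberg values over 13679 genes tested, with a threshold of 0.05.

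Arrays of the same group correlated between 0.987 and 0.995. The actin control probes compare both ends of the transcript as a measure of RNA integrity. Their 3' signal exceeded the 5' signal by 0.27 to 0.35 at 1 h and by 0.11 to 0.20 at 10 h in wild-type cells, so that the times did not overlap (two-sided exact permutation p = 0.1, the smallest that 3 against 3 allows). For the Gapdh control the ranges were -0.22 to -0.10 and -0.31 to -0.19 and overlapped (exact permutation p = 0.2). The part of RNA integrity in the results was not tested. By embryo, deviations from the group means correlated at 0.524 between the 1 h and 10 h arrays of wild-type embryo 1, but at -0.032 and -0.113 for embryos 2 and 3. The 1 h array of embryo 2 correlated at 0.359 with the 10 h array of embryo 3, and that of embryo 3 at 0.371 with the 10 h array of embryo 2. An exchange of embryos within a time leaves the unpaired comparison as it is. Of the 18 fibroblast markers tested, 6 were lower (33.3%, against 18% of all genes) and 1 was higher (5.56%, against 15.3%) at 10 h. Col1a1, Col1a2 and the other collagen and vimentin markers did not pass, and Pdgfra was among the lower ones. Macrophage markers were high on all arrays: the mean of 21 of them lay between 8.40 and 10.0 at 1 h and between 7.89 and 9.83 at 10 h, highest in embryo 1 at both times. None of the 21 passed (median difference -0.07). With the embryo as a replicate block over 18 arrays 5 were lower (Ptprc, Mrc1, Mpeg1, Cd53 and Lcp1) and 1 was higher, and with the block in the 6 arrays 2 (Mrc1 and Cd53) and 1. In bulk RNA fewer cells of a type and less RNA per cell cannot be told apart.

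Of 13679 genes 4556 differed between 1 h and 10 h of TGF-β1 (33.3%), 2089 of them higher at 10 h (15.3%) and 2467 lower (18%). The difference was at least 2-fold for 247 of the higher and 479 of the lower genes, 726 in all (5.31%). With each array centred on its median over the genes tested, the split was 3081 higher against 1807 lower, or 63.0% higher against 45.9% as deposited. Centring moved the median difference of all genes from 0.002 to 0.109. The 3 values at 10 h lay all above those at 1 h in 21.1% of genes and all below them in 23.5%. The 95% interval of a difference, without adjustment, had a median reach of 0.27 to either side. This describes precision and is not the smallest change that the adjusted test could detect. Each gene was read from its brightest probe set, and 216 early genes and genes named by rule were checked on their others, with adjustment over all probe sets. Of the 101 that passed and had another probe set, another passed the same way for 64 and none passed for 35, among these Tgfb1, Inhba, Tgfbr3, Arntl, Per2, Lifr, Met, Smad3 and Cdkn1b. For Rspo2 and Nudt6 another passed the opposite way.

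To follow the first response without the wild-type 1 h means on both sides, early genes were taken from the cells labelled knock-out. There 57 genes passed as higher at 1 h than in untreated cells (0.417% of those tested) and 10 as lower (0.0731%). The fit gives each gene 1 estimate of spread from all 18 arrays, wild type included. A gene with a small spread passes both tests more easily, and the part of this in the shares that follow was not tested. In wild-type cells 20 of the 57 were then lower at 10 h than at 1 h (35.1%, against 18% of all genes), 15 were higher (26.3%, against 15.3%) and 22 did not pass. The 95% interval lay within 2-fold either way for 20 of these 22. Not every early gene passed at 1 h against untreated cells in wild type. The raised genes that did not were Id4, Ier5l, Mideas, Jmjd4, Nod1, Edn1, Rhob, Klf13, Nfil3 and Nudt6. The lowered ones were Zfp503, Pars2 and 2810021J22Rik. Together with the 10 genes lowered at 1 h, 40 of the 67 early genes differed between 1 h and 10 h in wild type. They made up 0.878% of its 4556 calls, and 18 of the 726 changes of at least 2-fold. The early list depends on the knock-out arrays: it held 33, 26 and 23 raised genes without knock-out embryo 1, 2 and 3, of which 11, 10 and 12 were lower at 10 h in wild type and 7, 4 and 2 higher. Without wild-type embryo 1 it held 43, of which 12 were lower and 9 higher. With the embryo as a replicate block over 18 arrays it held 84 raised genes, 31 lower and 26 higher at 10 h.

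**Figure D1:**
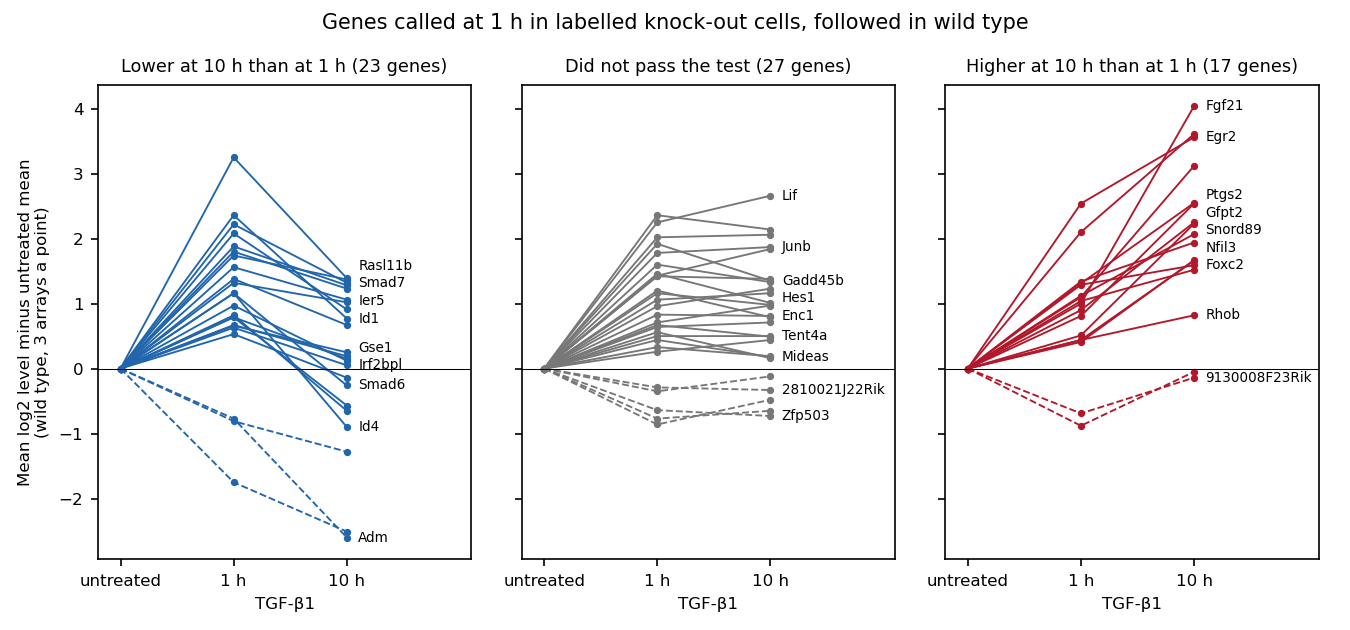
Mean log2 level of the 67 early genes in wild-type cells minus the untreated mean, by time with TGF-β1, 3 arrays a point; solid lines are genes raised and dashed lines genes lowered at 1 h in cells labelled knock-out. The panels hold the 23 genes lower at 10 h than at 1 h, the 27 that did not pass and the 17 that were higher; Rasl11b went from 3.25 above untreated at 1 h to 1.39, while Fgf21 climbed from 1.00 to 4.05.

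The promoters of an early gene from each direction are shown first. The levels of Smad6 fell and those of Egr2 rose after the first hour, and each was the only gene of its set with the element marked. Both are RefSeq windows of 300 bases in assembly GRCm38.p6, around an annotated start, 5′ to 3′ on the gene's strand. Smad6 lies at chr9:64022010-64022309, minus strand, and Egr2 at chr10:67537316-67537615, plus strand. In Smad6 the capitals mark GTCTAGAC, the palindromic SMAD element, at position -4 from the start. This element stands in 70 of 32851 promoters of that length (0.213%), on either strand, and in 0.328% of tested genes with a promoter. Of the 20 early genes that fell, 16 had a promoter, and 1 of these, Smad6, held it. In Egr2 the capitals mark a CArG box, the element that serum response factor binds, at position -72. A CArG box stands in 535 of the 32851 promoters (1.63%) and in 1.58% of tested genes with a promoter. Of the 15 early genes that rose further, 10 had a promoter, and 1 of these, Egr2, held it. Egr2 has several annotated starts: 4 of its windows held a CArG box, and 1 of them is printed. The matches are descriptions of sequence only.
Smad6: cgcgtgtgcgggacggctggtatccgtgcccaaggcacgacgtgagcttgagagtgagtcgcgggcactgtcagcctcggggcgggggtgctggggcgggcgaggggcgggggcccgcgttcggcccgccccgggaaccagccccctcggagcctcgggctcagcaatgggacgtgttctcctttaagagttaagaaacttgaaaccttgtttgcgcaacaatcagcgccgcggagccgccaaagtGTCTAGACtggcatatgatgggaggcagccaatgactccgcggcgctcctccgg
Egr2: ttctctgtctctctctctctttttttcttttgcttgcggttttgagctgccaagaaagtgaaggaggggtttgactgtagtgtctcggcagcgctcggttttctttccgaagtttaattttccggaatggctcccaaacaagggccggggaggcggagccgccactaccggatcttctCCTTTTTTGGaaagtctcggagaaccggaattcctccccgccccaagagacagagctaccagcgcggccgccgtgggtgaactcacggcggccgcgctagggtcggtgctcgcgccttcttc

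The genes that rose at 1 h and then fell include inhibitors of the pathway and of BMP-type signalling. Smad6, an inhibitory SMAD, read 8.43, 8.73 and 8.51 at 1 h and 7.11, 7.33 and 6.97 at 10 h. No later value reached an earlier one, and the fall of 2.67-fold (difference -1.42 ± 0.15 SE, adjusted p = 4.3e-06) brought it from 1.16 above untreated cells to -0.26. Smad7, which recruits ubiquitin ligases to the receptor, fell less, from 8.91, 8.92 and 8.89 to 8.16, 8.38 and 8.38 (-0.60 ± 0.10, adjusted p = 0.00031). It was still 1.28 above untreated cells at 10 h. The steepest early rise in wild type was that of Rasl11b, a small GTPase of the Ras family, at 11.47, 11.64 and 11.52 after 1 h. It came down to 9.54, 9.79 and 9.70 after 10 h (3.65-fold, adjusted p = 3.4e-06) and was then 1.39 above untreated cells.

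The Id genes encode helix-loop-helix proteins that block other factors of that class. Id1 read 9.82, 10.10 and 10.19 at 1 h and 8.55, 8.53 and 8.26 at 10 h, a 3.01-fold fall without overlap (adjusted p = 4.4e-05). Id4 fell by 2.07 ± 0.26 on the log2 scale, from 1.17 above untreated cells, which did not pass (adjusted p = 0.0541), to -0.90. Id2 and Id3, which were not on the early list, differed by -1.66 and -1.68. Klf10, a zinc-finger repressor induced by TGF-β, read 9.77, 10.09 and 10.09 and then 9.06, 8.67 and 8.71 (-1.17, adjusted p = 1.8e-05). Snai1, a repressor of E-cadherin, fell by 0.89 ± 0.17 and stayed 1.32 above untreated cells. The other early genes that fell were Bcor (-1.48), Ppp1r3d (-1.37), Dlx2, Cdk5r1, Zbtb2, Zbtb1, Irf2bpl, Spsb1, Gadd45g, Gse1, Rassf5, Csrnp1 and Ier5, the last close to the threshold. Against untreated cells their 1 h values share the 1 h arrays with the later contrast, so those values are side by side only.

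A second set of early genes did not pass between 1 h and 10 h. Junb, an AP-1 subunit, read 8.66, 8.47 and 8.42 at 1 h and 8.62, 8.78 and 8.42 at 10 h. The ranges overlapped, the difference was 0.09 with a 95% interval from -0.41 to 0.59, and the gene was 1.87 above untreated cells at 10 h. For Bhlhe40, a clock-linked repressor, the interval ran from -0.58 to 0.67, with 2.02 and 2.06 above untreated cells at the 2 times. Skil, which encodes the SMAD co-repressor SnoN, differed by -0.17 (interval -0.46 to 0.12), Ccn1, a matrix-cell adapter, by 0.10 (-0.25 to 0.44) and Mafk by 0.07 (-0.16 to 0.29). The precision was lower for Lif, a cytokine of the interleukin-6 family, whose interval ran from -0.34 to 1.17. Gadd45b (adjusted p = 0.0613), Pim1 (0.0647) and Hes1 (0.0777), with differences of -0.56, -0.41 and -0.45, missed the threshold. The others that did not pass were Ier5l, Wnt9a, Mideas, Ier3, 1700017B05Rik, Jmjd4, Fgf18, Enc1, Tent4a, Nod1, Edn1, Pxdc1 and Nuak2. Of the genes in this paragraph, a second probe set passed as lower for Gadd45b, Ier5l and 1700017B05Rik and as higher for Enc1, Mideas and Tent4a.

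Another set went on climbing. Fgf21, a hormone of the fibroblast growth factor family, read 6.43, 6.62 and 6.63 at 1 h and 9.54, 9.89 and 9.38 at 10 h, an 8.27-fold rise (3.05 ± 0.15, adjusted p = 1.7e-09) on top of 1.00 above untreated cells. Hbegf, a ligand of the EGF receptor, rose from 11.42, 11.30 and 11.26 to 12.82, 13.16 and 12.54 (2.86-fold, adjusted p = 5.9e-07). Egr2, a zinc-finger factor, read 9.77, 9.36 and 9.38 and then 10.54, 10.91 and 10.11, which put it at 3.56 above untreated cells. In these 3 genes every 10 h value exceeded every 1 h value. Vegfa, the main vascular growth factor, rose by 1.73 ± 0.15, and Ptgs2, which encodes the inducible cyclooxygenase, by 1.24 ± 0.18. Foxs1 rose by 2.01, Gfpt2 by 1.35, Nfil3 by 1.26 and Klf13 by 1.22, while Ccn2, a matricellular target of TGF-β, rose by 0.48 (adjusted p = 0.0119). Snord89, Rgcc, Rhob and Foxc2 completed the set with Nudt6, whose second probe set was lower at 10 h (-0.42), so its direction is uncertain. In wild type the 1 h rise over untreated cells had not passed for Nfil3 (0.42), Klf13 (0.44), Rhob (0.44) or Nudt6 (0.51).

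Genes that fell at 1 h divided as well. Adm, which encodes the vasodilator adrenomedullin, went on falling, from 7.90, 7.71 and 8.18 to 5.83, 6.36 and 6.09 (-1.83 ± 0.16, adjusted p = 8.4e-07). It ended at -2.60 against untreated cells. Ppp1r3c, which brings a phosphatase to glycogen, fell by a further 0.76 and 9930012K11Rik by 0.47. Without wild-type embryo 1 neither passed, Ppp1r3c did not pass without the 1 h array of that embryo, and its other probe set differed by 0.00. Zfp53 (0.83) and 9130008F23Rik (0.56) rose again and ended at -0.04 and -0.14 against untreated cells. The pair that rose again was 1 gene without wild-type embryo 1 or 3 or any knock-out embryo, and 4 genes without the 10 h array of embryo 3. Cited2, Tent5a, Zfp503, Pars2 and 2810021J22Rik did not pass.

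**Figure D2:**
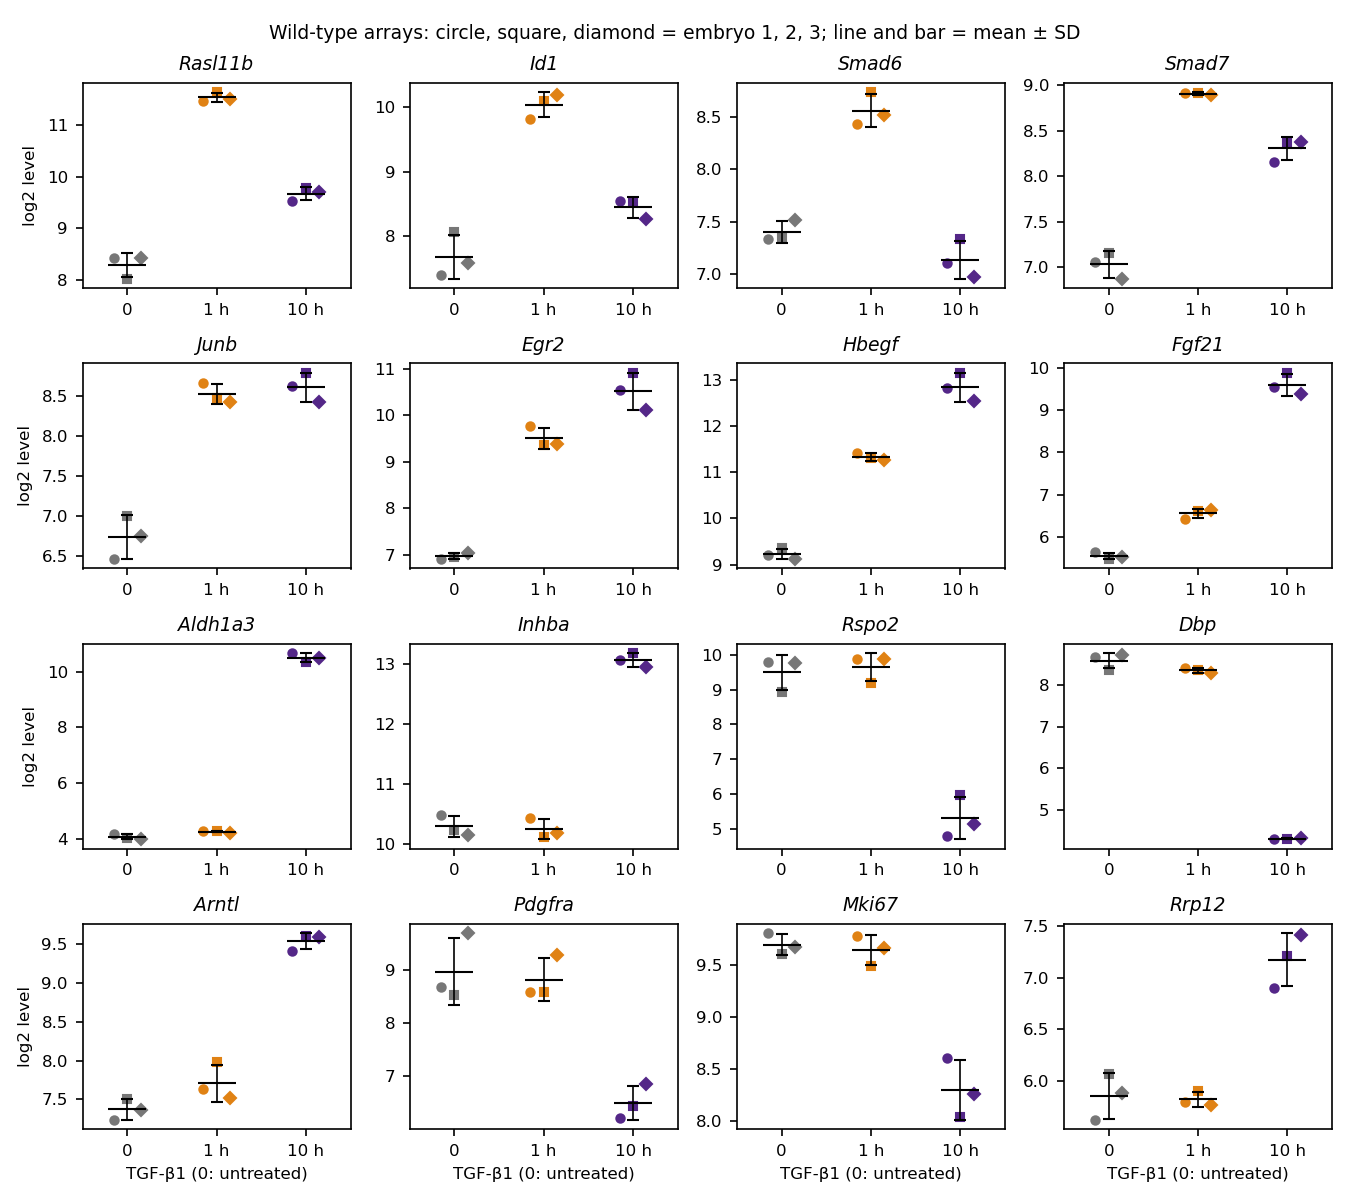
Log2 level of 16 genes on each wild-type array, untreated and after 1 h and 10 h of TGF-β1; symbols are the 3 embryos and the lines with bars are means ± SD. Rasl11b, Id1 and Smad6 peaked at 1 h, Junb stayed, Egr2, Hbegf and Fgf21 climbed, and Aldh1a3 read 4.24 to 4.29 at 1 h against 10.35 to 10.67 at 10 h.

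Of the 12 largest rises after the first hour, Fgf21 was the one gene that had already passed at 1 h against untreated cells. Aldh1a3, which oxidises retinaldehyde to retinoic acid, read 4.28, 4.29 and 4.24 at 1 h and 10.67, 10.35 and 10.48 at 10 h, a 75.2-fold rise (6.23 ± 0.19, adjusted p = 4.4e-12). At 1 h it differed from untreated cells by 0.19 (adjusted p = 0.981). Gjb2, a gap junction connexin, rose from 7.40, 6.99 and 7.59 to 11.12, 11.72 and 10.71 (14.5-fold). Il11, an interleukin-6 family cytokine, rose from 6.73, 6.86 and 7.19 to 9.92, 11.09 and 9.83 (10.2-fold, adjusted p = 3.5e-07). The groups of these genes lay far apart on every array. Nppb, a natriuretic peptide, rose 10.3-fold, Lce1f 12.3-fold, Olfm2 8.65-fold, the scavenger receptor Olr1 8.48-fold and the protease inhibitor Tfpi2 8.11-fold. Itga5, the fibronectin receptor subunit, read 8.48, 8.44 and 8.46 and then 11.34, 11.40 and 11.35 (7.47-fold). Inhba, the activin A subunit and itself a TGF-β family ligand, rose from 10.44, 10.11 and 10.19 to 13.08, 13.19 and 12.96 (7.14-fold), and Has2, a hyaluronan synthase, rose 6.77-fold. The lower of both means lay under the lowest array median (4.74) for Aldh1a3, Lce1f, Olfm2 and Olr1, near the bottom of the scale, where an array may understate a fold. The same holds at 10 h for Dbp, Lrrn3 and Rarb among the falls below, for Ifit2 and for Ppp1r3c above.

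None of the 12 largest falls had passed at 1 h against untreated cells. Rspo2, a secreted enhancer of Wnt signalling, went from 9.87, 9.18 and 9.89 at 1 h to 4.80, 5.98 and 5.14 at 10 h (20.3-fold, adjusted p = 1.5e-07), although a dimmer second probe set was higher at 10 h by 0.28. Lpl, lipoprotein lipase, fell 10.6-fold, with embryo 1 highest at both times (10.20 against 8.94 and 9.16 at 1 h, 6.84 against 5.45 and 5.79 at 10 h). Embryo 1 also had the highest mean of macrophage markers at both times, and their part in this result was not tested. Slc40a1, the iron exporter, fell 8.80-fold, Fbxl7 8.10-fold, the aggrecanase Adamts5 7.81-fold and Lrrn3 7.37-fold. Gas1, a hedgehog co-receptor, fell 6.29-fold, Cyp1b1 5.99-fold and Agtr2, an angiotensin receptor, 5.91-fold. Dbp, Tgfbr3 and Rarb complete the 12 and are described with their pathways.

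Signal components moved in both directions. Of 25 SMAD feedback and early target genes tested 12 were lower at 10 h (48.0%, against 18% of all genes) and 6 higher (24.0%, against 15.3%). Their median was -0.56 against 0.002 over all genes. The lower ones were the genes above with Bambi, a decoy receptor (-1.01), Klf11 and Tgif2. The higher ones included the ubiquitin ligases Smurf1 (0.99) and Smurf2 (0.58), the inhibitors Pmepa1 (0.78) and Ldlrad4 (1.07), and Sphk1, a sphingosine kinase, which read 7.44, 7.67 and 7.57 at 1 h and 9.29, 9.77 and 9.56 at 10 h. Some feedback genes thus came down while others rose. Among 25 ligands, receptors and SMADs 9 were higher (36.0%, against 15.3% of all genes) and 5 lower (20.0%, near the 18% of all genes). Tgfb1 itself rose from 8.53, 8.49 and 8.26 to 10.14, 10.46 and 10.23 (3.59-fold, adjusted p = 4.3e-06), beside Inhba, Tgfb3 (0.51) and the activin-binding proteins Fst (1.01) and Fstl3 (1.25). Of the receptors Tgfbr1 (0.62) and Acvr1 (0.79) rose, whereas Tgfbr2 (-0.49) and the co-receptor Tgfbr3, or betaglycan, fell; Tgfbr3 read 7.71, 8.04 and 8.67 and then 4.86, 5.47 and 5.91. Smad3 fell by 0.81 ± 0.09 on the probe set used, and Smad1 by 0.57. The count of lower genes was 3 instead of 5 without wild-type embryo 1, 2 or 3, and also without the 1 h array of embryo 1 or 3 or the 10 h array of embryo 1 or 2.

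Feedback genes of the MAP kinase pathway rose in more cases than they fell. Of 16 MAP kinase phosphatases and Sprouty family genes 6 were higher (37.5%, against 15.3% of all genes) and 2 lower (12.5%, against 18%). Dusp4, Dusp5 and Dusp6, which dephosphorylate ERK, rose by 2.49, 2.07 and 2.22; Dusp5 read 7.01, 6.86 and 6.78 at 1 h and 9.13, 9.21 and 8.52 at 10 h. The lower ones were Spry2 and Spred1, and 1 or none of them passed without any 1 of the 3 embryos, without the 1 h array of embryo 1 or 2 or without the 10 h array of embryo 3. Of 32 immediate early genes, the class first induced by growth factors, 11 were higher at 10 h than at 1 h (34.4%) and 6 lower (18.8%). The lower share was near that of all genes. Ier2 rose by 1.82, Plk3 by 1.58, Fosl1 by 1.26 and Myc by 1.09 (7.99, 7.74 and 7.87 against 8.98, 9.16 and 8.75), and none of these 4 had passed at 1 h against untreated cells, where 80 genes did (0.585%). Nr4a1 (-1.23) led the lower ones, of which 3 and 2 were left without embryo 1 and embryo 3. Fos, at 8.60, 8.26 and 8.16 and then 8.34, 8.27 and 7.58, did not pass.

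Of 40 secreted growth factors and cytokines 15 were higher and 6 lower, against 15.3% and 18% of all genes. Beside Il11, Nppb, Fgf21, Hbegf and Vegfa the higher ones included Fgf2 (2.52), Il6 (2.01), Wnt11 (1.89), Pdgfc (1.36), the EGF receptor ligand Ereg (1.11) and Pdgfa, which read 8.75, 8.74 and 8.63 and then 10.00, 10.20 and 9.84. The lower ones included Vegfd (-1.71), Fgf7 (-1.35) and Angpt2 (-1.32). Of 27 growth factor receptors 9 were lower (33.3%) and 1, Bmpr1b, was higher (3.70%). Pdgfra, the receptor for PDGF-A, read 8.59, 8.59 and 9.29 at 1 h and 6.22, 6.44 and 6.85 at 10 h (5.01-fold lower, adjusted p = 1.9e-05). Lifr and Il6st, which form the receptor for LIF, fell 4.47-fold and 3.49-fold, Fgfr2 4.05-fold and Met, the HGF receptor, 2.89-fold. Without the 1 h array of embryo 1 the receptor counts were 2 higher and 8 lower.

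Of 25 chemokine and inflammation genes 5 were higher (20%) and 4 lower (16%), shares near the 15.3% and 18% of all genes. Cx3cl1, a membrane-bound chemokine, rose by 2.37 and Cxcl14 by 1.38, while Ptx3 (-2.48), Ccl9 (-2.40), the adhesion molecule Vcam1 (-1.61) and Cxcl12 (-0.81) fell. The lower count was 1 or 2 without each wild-type embryo, without the 1 h array of embryo 1 or 3 and without the 10 h array of embryo 2 or 3, and the higher count was 8 without knock-out embryo 1 and with the embryo as a block in the 6 arrays. Of 26 interferon response genes 9 were lower (34.6%, against 18% of all genes) and none higher (15.3% of all genes were). Ifit2 fell from 7.0, 6.84 and 6.87 to 5.07, 4.28 and 4.84 (4.52-fold), Gbp2 by 1.84 and Ifit3 by 1.74 on the log2 scale. Without embryo 3 the count was 4, and without its 10 h array 5.

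Of 21 collagen chains 8 were higher (38.1%, against 15.3% of all genes) and 2 lower (9.52%, against 18%). The higher ones were led by Col8a2 (2.06) and Col5a3 (1.23), both of which form minor collagens. Col1a1, the main fibrillar chain, read 13.94, 13.73 and 13.98 and then 13.70, 13.94 and 13.73, near the highest value of any array (14.47), where a change could be compressed. A second Col1a1 probe set differed by 0.99 ± 0.35 and did not pass (adjusted p = 0.0671 over all probe sets). Without embryo 2, without its 10 h array and without its 1 h array the higher count was 3, 5 and 5, and the lower count was 0 without embryo 3 and 1 without embryo 1, the 10 h arrays of embryos 2 and 3 or the 1 h array of embryo 1. With the embryo as a block in the 6 arrays the counts were 5 and 1. Of 36 matrix glycoproteins and proteoglycans 7 were higher (19.4%, against 15.3% of all genes) and 10 lower (27.8%, against 18%). Eln (2.63), the elastin gene, and Tnc, tenascin C, rose; Tnc read 12.09, 12.02 and 12.22 and then 13.31, 13.32 and 13.55. The small proteoglycans Ogn (-1.29), Lum (-1.19) and Aspn (-0.51) and the laminin chains Lama2 (-0.27) and Lama4 (-1.16) fell. Without embryo 2 the counts were 2 and 6, without its 1 h array 3 and 7 and without its 10 h array 4 and 8, and without embryo 3 or its 1 h array they were 6 and 6.

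Of 18 enzymes that crosslink or fold collagen 7 were higher (38.9%, against 15.3% of all genes) and none lower. The rises ran from Bmp1 and Plod1 at 0.33 to Pcolce2 at 0.87. The count was 2 without embryo 2, 2 in a fit of the 6 arrays alone and 1 with the embryo as a block in those 6 arrays. Of 22 proteases and inhibitors 9 were higher (40.9%) and 6 lower (27.3%, against 18% of all genes). Timp1 and Timp3, which inhibit metalloproteinases, rose by 1.34 and 1.80, Mmp9 by 1.87 and the urokinase receptor Plaur by 1.68. The ADAMTS enzymes divided: Adamts1 (-1.78), Adamts5 (-2.96) and Adamts9 (-0.63) fell, whereas Adamts4 (0.96) and Adamts6 (0.60) rose. Without embryo 3 the protease counts were 5 higher and 5 lower, and with the embryo as a block in the 6 arrays 5 and 6.

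Of 30 contractile and actin genes 14 were higher (46.7%, against 15.3% of all genes) and 1, Myh10, was lower (3.33%, against 18%). The median was 0.25. Cnn1, a calponin of smooth muscle, rose from 10.95, 10.07 and 10.70 to 12.33, 12.40 and 11.37 (2.75-fold), Pfn1 by 1.32, Smtn by 1.02 and Tagln2 by 0.97. The other 10 rose by 0.24 to 0.55. Acta2, the smooth muscle actin that marks myofibroblasts, read 14.04, 13.96 and 13.98 and then 14.15, 13.89 and 14.08, in the same range, where a rise could be compressed. The higher count was 6 without embryo 2 and 7 in the 6 arrays alone, with or without the embryo as a block. Of 10 striated muscle markers 3 rose (30.0%, against 15.3% of all genes), among them Acta1 by 2.23 and Tnnt2 by 1.66. Of 15 integrins 4 were higher (26.7%, against 15.3% of all genes) and none lower (18% of all genes were). Itgb3, a vitronectin receptor chain, read 6.41, 6.57 and 6.47 and then 8.61, 7.97 and 8.93. The integrin count was 2 without wild-type embryo 1 or 2, without either array of embryo 2 and without knock-out embryo 1 or 3, and with the embryo as a block over 18 arrays 3 were higher and 2 (Itga4 and Itgb8) lower.

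**Figure D3:**
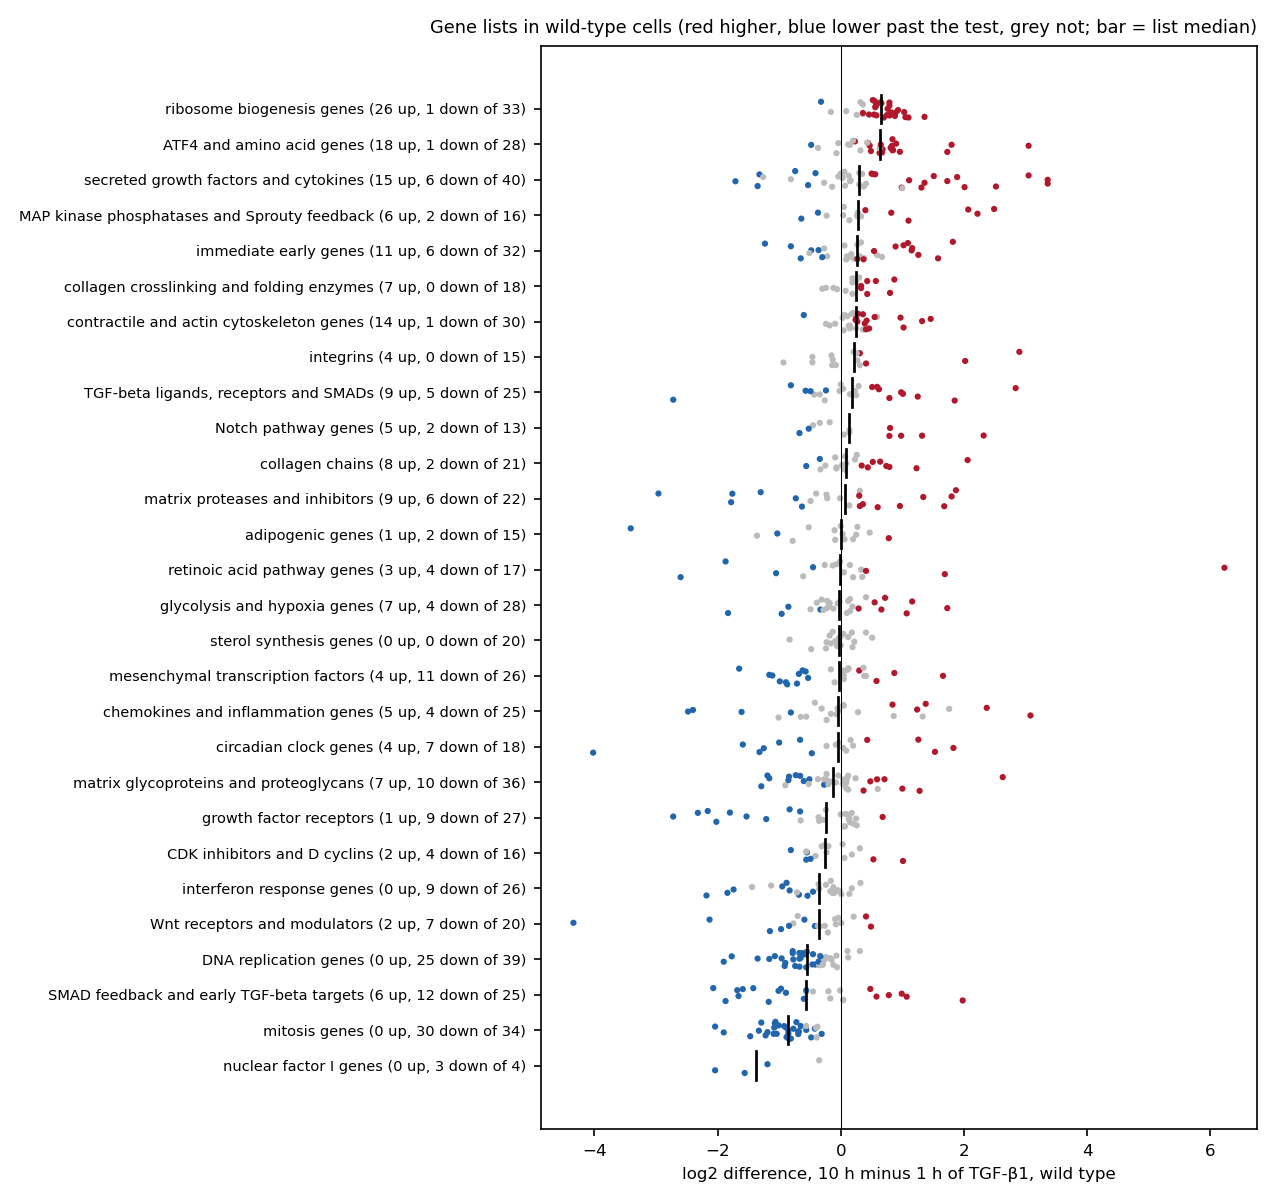
Difference in log2 level between 10 h and 1 h of TGF-β1 in wild-type cells for each tested member of 28 gene lists, ordered by list median (black bar); red and blue points passed the test as higher and lower, grey points did not. Ribosome biogenesis genes lie on the right (26 up, 1 down of 33) and mitosis genes on the left (30 down of 34).

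Genes of cell division were lower at 10 h. Of 34 mitosis genes 30 fell (88.2%, against 18% of all genes) and none rose (median -0.85). The falls ran from -0.31 for Foxm1, which drives this programme, to -2.04 for Nuf2 of the kinetochore. Mki67, the Ki-67 proliferation antigen, read 9.77, 9.49 and 9.66 at 1 h and 8.61, 8.04 and 8.26 at 10 h, a 2.52-fold fall without overlap (adjusted p = 0.00017). Without embryo 3 the count was 17. Of 39 DNA replication genes 25 fell (64.1%) and none rose (median -0.55). The helicase subunits Mcm2, Mcm3, Mcm4, Mcm5 and Mcm7 fell by 0.46 to 0.90 on the log2 scale, the primase subunit Prim1 by 1.90 and Pola1, the polymerase that extends primers, by 1.35. Mcm7 read 10.18, 10.31 and 10.17 and then 9.35, 9.54 and 9.43. Of 16 CDK inhibitors and related genes 2 rose, Cdkn2b (0.53), which encodes p15, and Gadd45a (1.01), and 4 fell, among them Cdkn1b (-0.81), which encodes p27 and whose other probe set differed by 0.06 (adjusted p = 0.743). These are 12.5% and 25%, against 15.3% and 18% of all genes. Cdkn1a, the gene of p21, read 11.82, 11.74 and 11.92 and then 11.92, 11.98 and 12.12 and did not pass. The lower count was 8 with the embryo as a block over 18 arrays, 7 without knock-out embryo 2, and 1 and 2 without wild-type embryos 1 and 3. The higher count was 1 without embryo 3 or the 1 h array of embryo 1.

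The promoters of a pair of the lower replication genes are printed because they hold the letters of an E2F element, the class of site bound by the factors that drive S phase genes. Mcm5 lies at chr8:75109259-75109558, plus strand and Cdc6 at chr11:98907901-98908200, plus strand, RefSeq windows in GRCm38.p6 as above. Capitals mark the element as it reads on the gene's strand, the reverse complement of TTTGGCGC in Mcm5 at position -149 and of TTTCCCGC in Cdc6 at position -138. Of the 25 lower replication genes 17 had a promoter in the table. TTTCCCGC stood on either strand in 5 of the 17 (29.4%), against 2.15% of 10989 tested genes with a promoter, and TTTGGCGC in 3 (17.6%, against 1.06%). Of the 30 lower mitosis genes 25 had a promoter, and none of these held either. Over all 32851 promoters the shares were 1.07% and 0.514%.
Mcm5: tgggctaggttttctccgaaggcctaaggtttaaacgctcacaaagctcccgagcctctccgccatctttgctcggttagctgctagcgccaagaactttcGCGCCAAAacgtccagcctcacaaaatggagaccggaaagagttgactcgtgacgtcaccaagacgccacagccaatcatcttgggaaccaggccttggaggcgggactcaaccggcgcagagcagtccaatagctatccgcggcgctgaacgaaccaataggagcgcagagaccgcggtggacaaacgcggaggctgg
Cdc6: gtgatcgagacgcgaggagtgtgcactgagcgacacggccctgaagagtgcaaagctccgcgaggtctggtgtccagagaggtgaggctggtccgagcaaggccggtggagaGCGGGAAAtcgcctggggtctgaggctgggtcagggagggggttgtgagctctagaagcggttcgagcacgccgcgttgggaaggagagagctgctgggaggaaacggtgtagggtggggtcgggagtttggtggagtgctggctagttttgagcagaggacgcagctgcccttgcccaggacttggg

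While cell division genes fell, genes for making ribosomes rose. Of 33 ribosome biogenesis genes 26 were higher (78.8%, against 15.3% of all genes), by 0.36 (Utp20) to 1.36 (Rrp12). The nucleolar chaperone Npm1 alone was lower (-0.32), and the median was 0.65. Rrp12, which exports ribosomal subunits, read 5.79, 5.90 and 5.76 and then 6.90, 7.21 and 7.41 (adjusted p = 1.6e-05). The RNA polymerase I subunits Polr1a and Polr1b rose by 0.52 and 0.79 and fibrillarin (Fbl), which methylates ribosomal RNA, by 0.79. All 26 also passed as higher in the cells labelled knock-out, tested with the same estimates of spread. Of the 26, 23 had a promoter in the table and 5 held CACGTG, the E-box core that MYC binds (21.7%, against 11.3% of tested genes). In the other sets searched the share ran from 4.00% (lower mitosis genes) to 30.0% (changed clock genes and early genes that rose further). These shares were not tested. Of 28 genes of the ATF4 and amino acid programme 18 were higher (64.3%) and 1, Atf5, lower (3.57%). The higher ones include Fgf21 and Vegfa, which also count among the secreted growth factors, and Vegfa counts among the glycolysis and hypoxia genes too. Atf4 rose by 0.67, the glutathione-degrading enzyme Chac1 by 1.80, the serine enzyme Psph by 0.96 and the folate enzyme Mthfd2 by 0.90. The amino acid transporters Slc7a1, Slc3a2 and Slc1a5 and the tRNA ligases Cars, Nars, Gars and Sars rose too, by 0.47 to 0.84.

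Of 28 glycolysis and hypoxia genes 7 were higher (25%) and 4 lower (14.3%), against 15.3% and 18% of all genes. Slc2a1, the main glucose transporter, rose by 1.16 and Hk2, a hexokinase, by 1.07, while Hif1a fell by 0.85 and Bnip3 by 0.96. Without embryo 2 or its 1 h array 5 were higher and 2 lower. No sterol synthesis gene of 20 passed, against 33.3% of all genes. Of 15 adipogenic genes Lpl and Fabp4 (-1.03) fell (13.3%) and Cebpb rose (6.67%), both below the shares of all genes. With the embryo as a block over 18 arrays Pparg, Cd36 and Scd1 fell as well. Without wild-type embryo 1 or 2, or without either array of embryo 2, 1 adipogenic gene was lower and none higher. Without knock-out embryo 1, 2 were higher and 3 lower.

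Clock genes moved in both directions. Of 18 tested 7 were lower (38.9%, against 18% of all genes) and 4 higher (22.2%, against 15.3%). All 11 passed the same way in cells labelled knock-out, tested with the same estimates of spread. Dbp, an output factor of the clock, read 8.40, 8.36 and 8.28 at 1 h and 4.32, 4.31 and 4.35 at 10 h (16.2-fold lower as measured, adjusted p = 6.7e-13). Nr1d2, Per2, Per3, Tef, Per1 and Nr1d1 fell by 1.59, 1.32, 1.25, 1.00, 0.66 and 0.47 on the log2 scale. Arntl, which encodes the activator BMAL1, rose from 7.63, 7.98 and 7.52 to 9.42, 9.61 and 9.59 (3.55-fold), with Cry1 (1.53), Nfil3 (1.26) and Clock (0.43). Per2 had been 1.03 above untreated cells at 1 h (adjusted p = 0.0273). The time since the medium change and the hour of harvest cannot be told apart from TGF-β1 in these genes.

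The nuclear factor I genes encode DNA-binding factors, 1 of which the series targets. Nfib fell from 9.85, 9.59 and 9.80 to 7.68, 7.28 and 8.17 (4.10-fold), Nfia 2.95-fold and Nfix 2.28-fold, while Nfic, at 10.77, 10.39 and 10.59 and then 10.19, 10.25 and 10.25, did not pass (-0.35, adjusted p = 0.115). Of 26 mesenchymal transcription factors 11 fell (42.3%, against 18% of all genes) and 4 rose (15.4%, against 15.3%). Prrx1, a limb and connective tissue homeobox gene, read 11.09, 10.77 and 11.06 and then 9.39, 9.32 and 9.25, and the hedgehog effectors Gli2 and Gli3 fell by 1.16 and 0.99; Meox1 rose by 1.66. Without embryo 2 the higher count was 2. Of 20 Wnt receptors and modulators 7 fell (35.0%) and 2 rose (10.0%, below the share of all genes). Rspo3 fell 4.38-fold, the co-receptor Lrp6 by 1.15 and Fzd1 by 0.97 on the log2 scale. The higher pair, Lef1 and Nkd2, was reduced to 1 or none without each wild-type embryo, without the 10 h array of embryo 2 or 3, without the 1 h array of embryo 1 or 3 and without knock-out embryo 3. Of 13 Notch genes 5 rose (38.5%), among them the targets Heyl (2.32) and Hey1 (1.32) and the ligand Jag1 (0.98). Notch2 and Notch3 fell (15.4%, below the share of all genes). The Notch counts were 3 and 3 without embryo 2, 4 and 0 without embryo 3, and 1 or none was lower without embryo 1, any of the 10 h arrays or the 1 h array of embryo 1 or 3.

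Of 17 retinoic acid genes 3 rose (17.6%) and 4 fell (23.5%), shares near those of all genes. The synthesis enzymes Aldh1a2 (1.69) and Rdh10 (0.41) rose with Aldh1a3, while Dhrs3 (-1.87), which reduces retinaldehyde, the carrier Crabp2 (-1.05) and the receptor Rarb fell. Rarb, itself a target of retinoic acid, read 6.47, 6.64 and 6.60 and then 3.79, 3.93 and 4.17. With the embryo as a block over 18 arrays 5 rose and 5 fell. Markers of other cell types included 4 of 12 epithelial genes that were higher (33.3%, against 15.3% of all genes), Pkp1 (2.33), Krt18 (1.25), Krt19 and Cldn4. Without embryo 3, either the 10 h array of embryo 2 or of embryo 3, or the 1 h array of embryo 1, 2 were, as in a fit of the 6 arrays alone. Of 9 endothelial markers Flt1 alone rose, by 1.61 (11.1%, below the share of all genes), and 3 and 2 rose without embryo 3 and its 1 h array. Of 12 neural markers Nes, Ncam1 and Tubb3 rose and Map2 and Stmn2 fell, with between 1 and 3 higher and 1 lower without embryo 2 or 3, either of their 10 h arrays or the 1 h array of embryo 1 or 3. The part of these markers in the results was not tested.

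The same contrast in cells of the other 3 embryos shares no array with the wild-type one. Both contrasts were tested in the same fit, with the same estimate of spread for each gene. A gene with a small spread therefore passes in both more easily, and the part of this in the shared calls was not tested. The level of Nfic did not separate the genotypes on the probe set used: its means were 10.45 and 10.35 in untreated, 10.58 and 10.56 in 1 h and 10.23 and 10.14 in 10 h cells, wild type first. The sources used here do not say which part of the gene was deleted. In cells labelled knock-out 1877 genes were higher and 2694 lower at 10 h than at 1 h (13.7% and 19.7%, or 33.4% in all). Of the wild-type calls 1460 were higher and 2054 lower in both, which is 77.1% of the wild-type and 76.9% of the knock-out calls, and none passed in opposite directions. Of the 726 wild-type changes of at least 2-fold 692 passed the same way. Across the 13679 genes, which are not independent, the differences correlated at Pearson's r = 0.923 and Spearman's rho = 0.872. No gene passed the test of the difference between the genotypes (limma, 0 genes adjusted, 367 at unadjusted p under 0.05), and for 92.3% of genes the 95% interval of that difference lay within 2-fold. The genes with the smallest p were Sntb2, Axin2, Trav9d-3, Pvalb and Ppp1r3c, the last falling by 0.76 in wild type and by 2.41 in knock-out cells on the log2 scale.

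**Figure D4:**
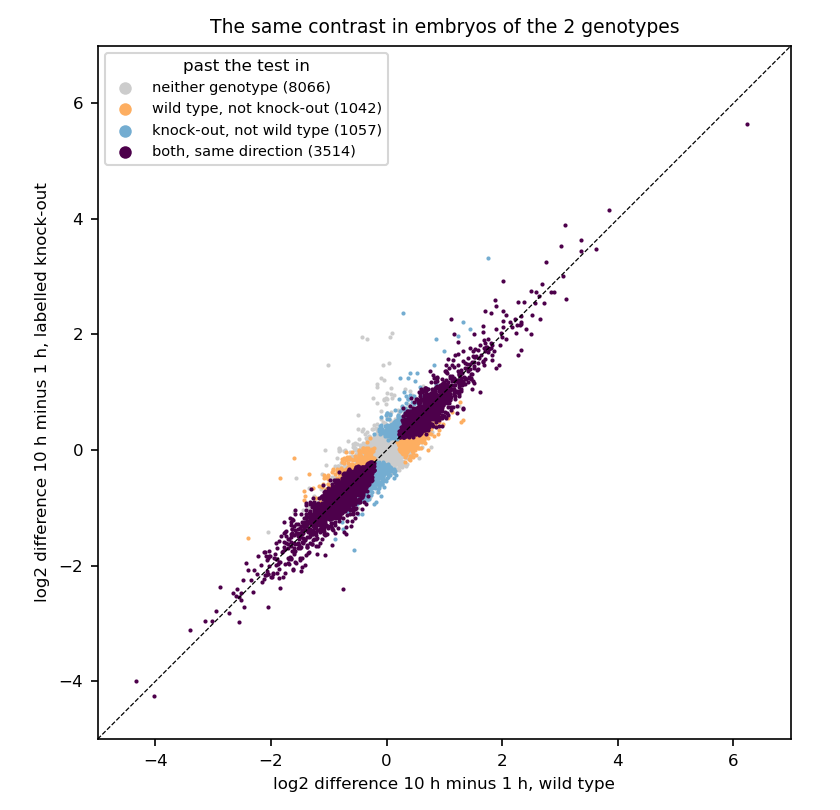
Difference in log2 level between 10 h and 1 h of TGF-β1 for 13679 genes in wild-type cells (x axis) and cells labelled knock-out (y axis), coloured by where the gene passed the test; the dashed line marks equal differences. The 3514 genes that passed in both lie along the line; no gene passed the test of the difference between genotypes, so a gene that passed in 1 genotype is not shown to differ.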

How the data were processed

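Affymetrix arrays measured total RNA; precision is limited by the number of arrays. The deposited log2 values, 1 per probe set and array, came from the authors' RMA run as named in the submitters' processing notes. The sources used here do not give its version. The log2 scale was read from the range, 2.49 to 14.47.

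Of 45101 probe sets 34958 carried 1 gene symbol in the array's annotation, 932 several and 9211 none; 34754 matched RefSeq (GRCm38.p6) by Entrez number. Each of 18194 genes was represented by its brightest probe set over the 18 arrays. Genes above the array's 40th percentile on at least 3 arrays were tested (13679; 4515 were not). limma 3.58.1 in R 4.3.3 fitted 6 group means over 18 arrays (12 residual degrees of freedom), with empirical Bayes, two-sided tests and Benjamini-Hochberg adjustment. Because 1 embryo gave an array in each condition, arrays at different times are not independent; the fit with the embryo as a block is an alternative. The pairing comes from the labels, which give same-numbered arrays of a genotype the same embryo; between 1 h and 10 h their deviations correlated at 0.400, 0.401 and 0.302 in knock-out cells, and the wild-type values stand in the report. Embryos are separate animals.

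The members and gene lists were chosen with earlier results of these data known. Some genes stand in more than 1 list. Genes named are the 12 largest rises and falls without overlap, up to 4 members of each list by adjusted p, the strongest early genes, and a fixed set of pathway genes; the remaining early genes and further list members were named after their values were seen. Arrays of 13679 genes were simulated for the wild-type 10 h versus 1 h contrast, with changes of 0.5, 1 and 2 planted in 67, 67 and 66 genes. The test recovered 49.3%, 91% and 97% of these changes, with 9 false among 167 calls. The simulated noise was independent between arrays, with no embryo effect, and far fewer genes changed than the 33.3% called in the data. These rates therefore do not carry over to the real contrast. Alternatives varied the filter, the arrays in the fit, the block, the probe set rule, the scaling, the variance moderation, a fold threshold and the arrays left out.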

Additional observations from a re-analysis of the deposited data

Results flagged for a closer look

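In a pair of genes every wild-type embryo moved one way between 1 h and 10 h and every knock-out embryo the other way. Dhcr7, the last enzyme of cholesterol synthesis, changed by -0.21, -0.31 and -0.03 in wild-type embryos 1, 2 and 3 and by 0.13, 0.03 and 0.22 in knock-out embryos, a difference of 0.31 ± 0.20 between genotypes. Nod1, a bacterial sensor, changed by 0.09, 0.34 and 0.13 in wild type and by -0.01, -0.17 and -0.16 in knock-out cells, a difference of -0.30 ± 0.14. Of 13679 genes 123 showed such a pattern (0.899%), and these 2 were among 216 genes examined. The differences by embryo rest on the labelled numbers, which the deviations of wild-type embryos 2 and 3 did not follow. The test of the difference in limma gave unadjusted p values of 0.135 and 0.0553 and adjusted p values of 1.00 for both, so neither passed.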

How the results depend on the processing

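Of 146 named genes past the threshold, 125 kept the call under each setting that used all replicates other than the test against 1.5-fold, and 123 without each replicate in turn; none reversed. Tested against 1.5-fold with treat of limma, 181 genes were higher and 281 lower, of 17 genes raised at 1 h in knock-out cells 3 were lower and 1 higher; fewer genes can pass by construction. No gene passed as lowered at 1 h under that test, so its count of 0 lowered genes that rose again says nothing. With the replicate block of embryo over 18 arrays the totals were 2388 higher and 2919 lower, and of 84 early raised genes 31 were lower and 26 higher; 4502 of the 4556 calls were kept. With the block in the 6 arrays 1433 were higher and 1882 lower, and 3108 calls were kept. The blocked fits rest on the wild-type embryo numbers, which the deviations of embryos 2 and 3 did not follow. Leaving out each replicate gave 1398 to 2061 genes higher and 1719 to 2471 lower. It gave 10 to 25 early raised genes lower, 2 to 16 higher, and 1 to 4 early lowered genes higher, and the early list changed with it. The totals were 2459 and 2214 with quantile normalization repeated, 2123 and 2053 with the mean of probe sets, 1605 and 2005 in the 6 arrays alone, and 1870 and 2292 in the 9 wild-type arrays. The interaction count was 0 in each fit that could give it. Fits of wild-type arrays alone could not give it. The cause of the other changes was not tested. Lists with a median near 0 (macrophage, chemokine, clock, sterol, glycolysis, retinoic acid and mesenchymal factor genes) had medians of opposite sign with arrays centred. Centring also gave 3 lower genes of TGF-β ligands, receptors and SMADs, 4 higher CDK inhibitor genes and 5 higher striated muscle genes. With the mean of a gene's probe sets 3 immediate early, 6 matrix glycoprotein and 0 Notch genes were lower. A replication gene was higher with arrays centred, with quantile normalization repeated, with the mean of probe sets and with the block over 18 arrays. The block gave 1 sterol gene in each direction over 18 arrays, and 2 integrins each way in the 6 arrays; its other changes of list counts by 2 genes or more and over 1.5 times stand beside the lists. The number of arrays limits precision.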

Other observations

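Fdps, an enzyme of isoprenoid synthesis, read 10.86, 11.68 and 11.25 at 1 h and 11.10, 8.38 and 11.83 at 10 h, so that the 10 h array of embryo 2 alone stood below every other wild-type array of the contrast.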
